A study of Mus musculus with 6 samples.

Results

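The Wnt signalling genes of dissected mouse dentate neuroepithelium were described in wild type tissue and in tissue carrying floxed Sox11, both labelled as embryonic day 14. They comprise every gene of the deposited table whose symbol names a Wnt ligand, a Frizzled receptor, a secreted frizzled-related protein, a Dickkopf, an R-spondin or Lgr4, Lgr5 or Lgr6, together with Frzb, Wif1, Lrp5, Lrp6, Axin1, Axin2, Lef1, Tcf7, Tcf7l1, Tcf7l2, Znrf3, Rnf43 and Nkd1. The rule found 58 of 35274 rows, which hold 57 genes, because Fzd6 is listed under 2 identifiers with identical values and was counted once. Averaged over the 6 libraries, 42 of the 57 genes reached 1 TPM and were tested, and 15 did not. TPM is a relative transcript abundance with a fixed total per library, corrected for transcript length, so levels of different genes can be set side by side.

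The 3 genotypes had 2 libraries each: wild type (WT), SOX11f/+ (HTZ, called haplodeficient in the labels) and SOX11f/f (HOMO, called homodeficient). All are labelled as dentate neuroepithelium cells of day 14 embryos, and the 2 floxed genotypes share the same wild type libraries as controls. The Cre driver is not given in the sources used here. Whether the 2 libraries of a genotype stem from different embryos is not given either, and the spread on which p-values rest may be technical. Sox11 itself stood at 192 and 130 TPM in WT, 56.1 and 50.1 TPM in HTZ and 5.23 and 5.06 TPM in HOMO libraries.

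Wnt ligands bind Frizzled receptors with the co-receptors Lrp5 and Lrp6, which frees β-catenin from a destruction complex built on Axin and Apc and lets it join TCF/LEF factors at target genes. Secreted antagonists trap the ligands or block the co-receptors, and R-spondins strengthen the signal by removing the ubiquitin ligases Znrf3 and Rnf43 from the membrane. Next to the dentate neuroepithelium lies the cortical hem, a strip of dorsal midline that secretes Wnts and R-spondins, and loss of Wnt3a or Lef1 in mice is known to impair formation of the hippocampus and its dentate gyrus.

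The labelled tissue was checked against fixed marker lists, each given as summed TPM per library. Granule lineage markers (7 of 7 detected, among them Prox1 and Neurod1) summed to 1664 to 2083 TPM in WT and 1029 to 1284 TPM in floxed libraries, and radial glia markers (9 of 9 detected) to 3376 to 4203 TPM over the 6 libraries. Genes of mature brain were present too, with Camk2a between 121 and 496 TPM, Slc17a7 between 79.8 and 393 TPM and Snap25 between 234 and 398 TPM. Grin2a was low, between 4.56 and 8.13 TPM. The astrocyte gene Gfap lay between 268 and 576 TPM. Whether such levels match tissue of the labelled day 14 was not tested, and the stage is taken from the labels alone. Microglia markers (7 of 7 detected) summed to 138 and 165 TPM in WT and 226 to 334 TPM in floxed libraries, and astrocyte markers (5 of 5 detected) to 424 and 393 TPM in WT and 501 to 818 TPM in floxed libraries. Their part in the levels below was not tested. Cortical hem genes that are not Wnt signalling genes (Lmx1a, Bmp6, Gdf7 and Msx1) summed to 13.8 and 7.92 TPM in WT, 64.4 and 14.6 TPM in HTZ and 44.7 and 43.2 TPM in HOMO libraries, and none of them was at 0 in every library. Choroid plexus markers (9 of 9 detected) summed to 7.45 and 5.91 TPM in WT, 11605 and 13.5 TPM in HTZ and 6646 and 212 TPM in HOMO libraries. Ependymal and motile cilia markers (8 of 8 detected) summed to 5.59 and 5.4 TPM in WT, 419 and 123 TPM in HTZ and 346 and 232 TPM in HOMO libraries. Among meningeal markers (8 of 8 detected) HOMO replicate 2 stood apart at 1442 TPM, against 94.4 to 341 TPM in the other libraries. In dissected tissue, fewer cells of a type and less RNA per cell cannot be told apart.

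**Figure D1:**
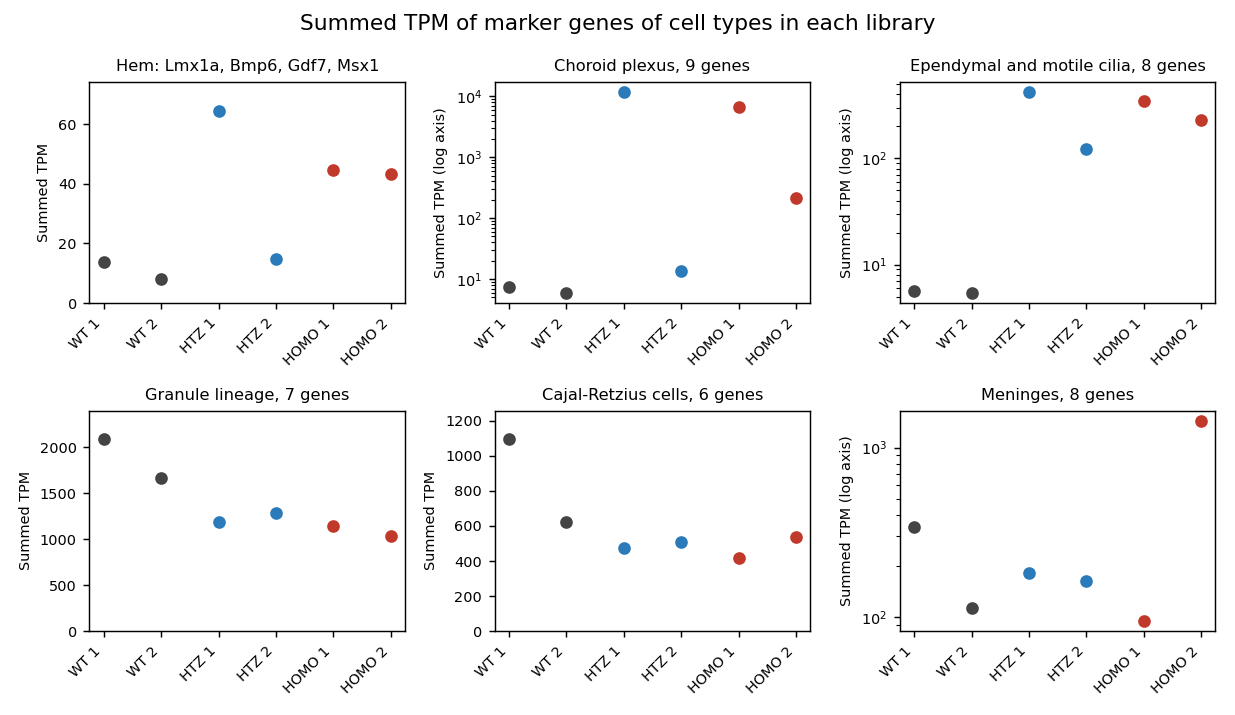
Summed TPM of 6 marker lists (y axis, logarithmic where labelled) in each library (x axis: genotype and replicate). Hem and choroid plexus sums are high in HTZ replicate 1 and both HOMO libraries and low in both WT libraries and HTZ replicate 2, and granule lineage sums are highest in both WT libraries.

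Levels differed widely within each role. Wnt7b, Wnt5a and Wnt7a led the 19 ligands, Fzd1, Fzd3 and Lrp6 the 12 receptors, Dkk3, Frzb and Sfrp1 the 10 antagonists, and Axin2 and Lef1, both also known as targets of the pathway, were well above the detection filter in every library. No gene passed the test between any genotypes, the smallest limma adjusted p being 0.15 in HOMO against WT, 0.28 in HTZ against WT and 0.9999 in HOMO against HTZ. The values below are therefore levels and differences that did not pass.

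**Figure D2:**
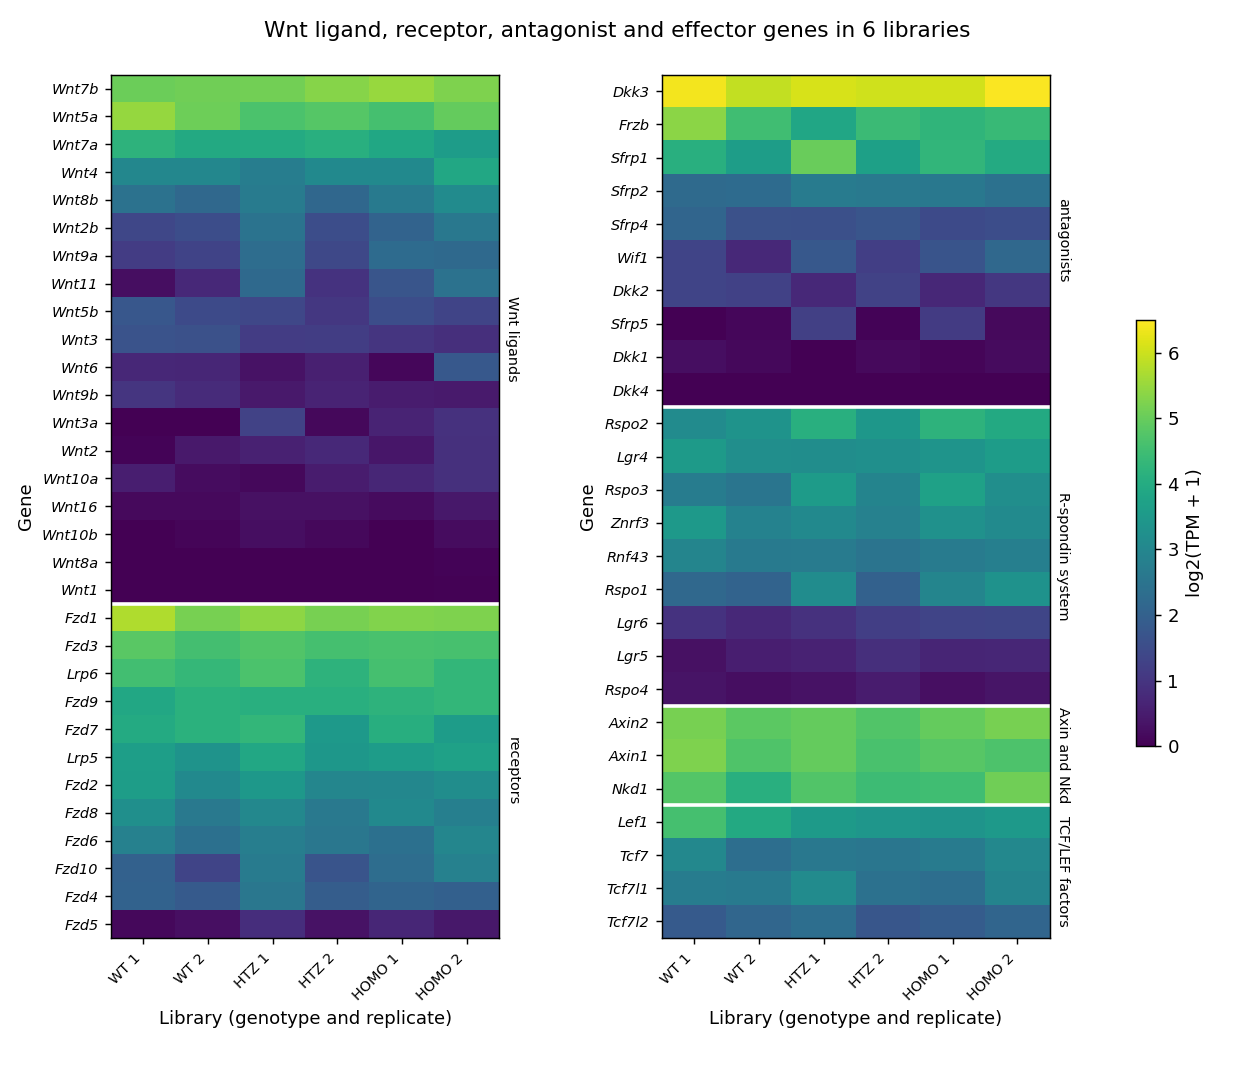
Level of the 57 genes as log2(TPM + 1) (colour) in each of the 6 libraries (columns), ordered by role and by mean level within a role. Dkk3, with the highest mean of 70.9 TPM, is bright in all libraries, and 15 genes have a mean below 1 TPM.

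Among ligands, Wnt7b, which signals through β-catenin in the developing forebrain, had the highest mean. It stood at 31.6 and 33.3 TPM in WT, 33.8 and 38.8 TPM in HTZ and 44.2 and 37.2 TPM in HOMO libraries, both floxed genotypes lying above WT without overlap. Its close relative Wnt7a stood at 17.4 and 14.5 TPM in WT, 14.8 and 16.2 TPM in HTZ and 13.7 and 11.1 TPM in HOMO libraries. Wnt7a was thus lowest in HOMO, below both other genotypes without overlap, while Wnt7b was not. Against HTZ, Wnt7a differed in HOMO by -0.31 (SE 0.17, limma adjusted p = 0.9999), or by -0.16 without HOMO replicate 2.

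Wnt5a, the main ligand of β-catenin-independent signalling, stood at 43.3 and 32.6 TPM in WT, 24.2 and 26.4 TPM in HTZ and 23.1 and 30.5 TPM in HOMO libraries. All 4 floxed libraries lay below both WT libraries. Its log2 fold change on the log2(TPM + 1) scale, used for all differences here, was -0.55 in HTZ (SE 0.19, limma adjusted p = 0.31) and -0.49 in HOMO (SE 0.19, limma adjusted p = 0.24). Without WT replicate 1, the higher WT library, these differences were -0.36 and -0.29.

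Wnt3, a β-catenin-activating ligand, was low but ordered by genotype, at 2.17 and 2.08 TPM in WT, 1.24 and 1.27 TPM in HTZ and 1.01 and 0.85 TPM in HOMO libraries. No pair of genotypes overlapped. The log2 fold change was -0.47 in HTZ (SE 0.24, limma adjusted p = 0.43) and -0.70 in HOMO (SE 0.24, limma adjusted p = 0.21), and over the fits that left out 1 library the HOMO value ran from -0.76 to -0.64. The SE of this low gene is far larger than the gap between its own replicates, since limma shares the spread over genes of like level.

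Wnt11, Wnt9a, Wnt2b, Wnt8b and Wnt3a had higher values in HTZ replicate 1 and both HOMO libraries than in WT, while in HTZ replicate 2 Wnt2b lay within and Wnt8b below the WT values. With all libraries none of the 4 tested passed, and Wnt3a was too low to be tested. Wnt11, a ligand known for its part in convergent extension, stood at 0.19 and 0.67 TPM in WT, 3.69 and 0.95 TPM in HTZ and 2.29 and 4.48 TPM in HOMO libraries. No floxed library overlapped WT, although HTZ replicate 2 lay close to it. The log2 fold change was 1.10 in HTZ (SE 0.48, limma adjusted p = 0.37) and 1.59 in HOMO (SE 0.48, limma adjusted p = 0.17). Differences without HTZ replicate 1 and HOMO replicate 1, the 2 libraries with the most choroid plexus RNA, are given here and for other genes below. They set 1 floxed library against 2 WT libraries. HOMO replicate 2 still had a choroid plexus sum of 212 TPM, beside 7.45 and 5.91 TPM in WT. For Wnt11 these differences were 1.96 in HOMO and 0.47 in HTZ. Each floxed genotype was then 1 library and the spread came from the 2 WT libraries alone, so the limma adjusted p of 0.0025 for HOMO against WT, past the threshold, is not read as a result. Its WT mean was below 1 TPM, and Wnt11 was tested only through its level in floxed libraries.

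The stretch before the start of Wnt11 and that before Lef1, the gene with the smallest p in both comparisons with WT, are printed because these genes had the highest and the lowest log2 fold change of the set in each comparison with WT. They are the 250 bases before a RefSeq transcript start on GRCm38.p6, 5′ to 3′, both on the plus strand, at chr7:98834862-98835111 for Wnt11 and chr3:131110047-131110296 for Lef1. Capitals mark a match to the TCF/LEF motif ATCAAAG.
Wnt11: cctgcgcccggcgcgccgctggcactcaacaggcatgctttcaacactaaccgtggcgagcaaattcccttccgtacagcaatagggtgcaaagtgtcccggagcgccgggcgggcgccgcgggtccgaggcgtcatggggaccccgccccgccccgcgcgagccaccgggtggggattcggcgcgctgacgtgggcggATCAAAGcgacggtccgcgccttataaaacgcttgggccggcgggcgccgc
Lef1: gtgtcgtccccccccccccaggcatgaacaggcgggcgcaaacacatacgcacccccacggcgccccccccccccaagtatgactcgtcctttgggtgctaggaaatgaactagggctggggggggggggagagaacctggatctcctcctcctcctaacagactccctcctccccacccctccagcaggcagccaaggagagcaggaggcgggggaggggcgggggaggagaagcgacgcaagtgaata
The Wnt11 stretch holds 1 match, at base 200, and the Lef1 stretch holds none. Both genes have further RefSeq starts that are not printed, and the windows of those starts hold no match. Windows of 300 bases (250 before and the first transcribed bases after the start) were searched on both strands for ATCAAAG and for the SOX-type motif AACAAAG, which differs from it at 1 base. RefSeq windows were matched by symbol for 38 of the 57 genes, 47 windows in all. ATCAAAG was in 2 of the 47 windows, or 4.26% (Wnt11 and Wnt5b), and in 3.73% of all 32851 windows. AACAAAG was in 4 of the 47, or 8.51% (Dkk1, Fzd7, Tcf7l2 and Wnt3), and in 5.85% of all windows. A match describes letters in the window only.

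Wnt9a, a ligand known from joint and limb development, stood at 1.22 and 1.48 TPM in WT, 4.04 and 1.67 TPM in HTZ and 3.86 and 3.63 TPM in HOMO libraries. HTZ replicate 2 was again the floxed library nearest WT. The log2 fold change in HOMO was 1.02 (SE 0.33, limma adjusted p = 0.20), and 0.98 without both libraries with the most choroid plexus RNA.

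The remaining ligands of this kind are textbook products of the cortical hem. Wnt2b stood at 1.63 and 1.91 TPM in WT, 4.54 and 1.88 TPM in HTZ and 3.19 and 5.11 TPM in HOMO libraries. Wnt8b stood at 4.49 and 3.62 TPM in WT, 5.52 and 3.51 TPM in HTZ and 5.41 and 7.81 TPM in HOMO libraries. Wnt3a, which drives hippocampal growth from the hem, was listed at 0 in both WT libraries, at 1.45 and 0.11 TPM in HTZ and at 0.56 and 0.90 TPM in HOMO libraries, and its mean was too low to be tested. In each of these genes both HOMO libraries and HTZ replicate 1 lay above both WT libraries, and HTZ replicate 2 lay within or close to the WT values. Of the 4 hem genes outside the Wnt set, Lmx1a, Msx1 and Bmp6 were also highest in these 3 libraries, whereas Gdf7 was not, at 0.32 and 0.13 TPM in WT, 0.42 and 0 TPM in HTZ and 0 and 0.22 TPM in HOMO libraries. Lmx1a stood at 1.33 and 1.01 TPM in WT, 6.96 and 1.21 TPM in HTZ and 5.44 and 4.68 TPM in HOMO libraries. The part of hem tissue in these levels was not tested.

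Wnt4 and Wnt6 stood apart in a single library. Wnt4, a ligand of many epithelia and of meninges, lay between 5.75 and 7.49 TPM in 5 libraries and at 13.8 TPM in HOMO replicate 2. Wnt6 stood at 2.44 TPM in HOMO replicate 2 and at 0.09 to 0.65 TPM elsewhere. This is the library with the high meningeal sum, whose part in these levels was not tested. Against HTZ, Wnt4 differed in HOMO by 0.56 (SE 0.29, limma adjusted p = 0.9999), or by 0.16 without HOMO replicate 2. Wnt5b, the other tested ligand, lay between 1.07 and 2.40 TPM. Besides Wnt3a and Wnt6, the ligands with a mean below 1 TPM were Wnt1, Wnt2, Wnt8a, Wnt9b, Wnt10a, Wnt10b and Wnt16.

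**Figure D3:**
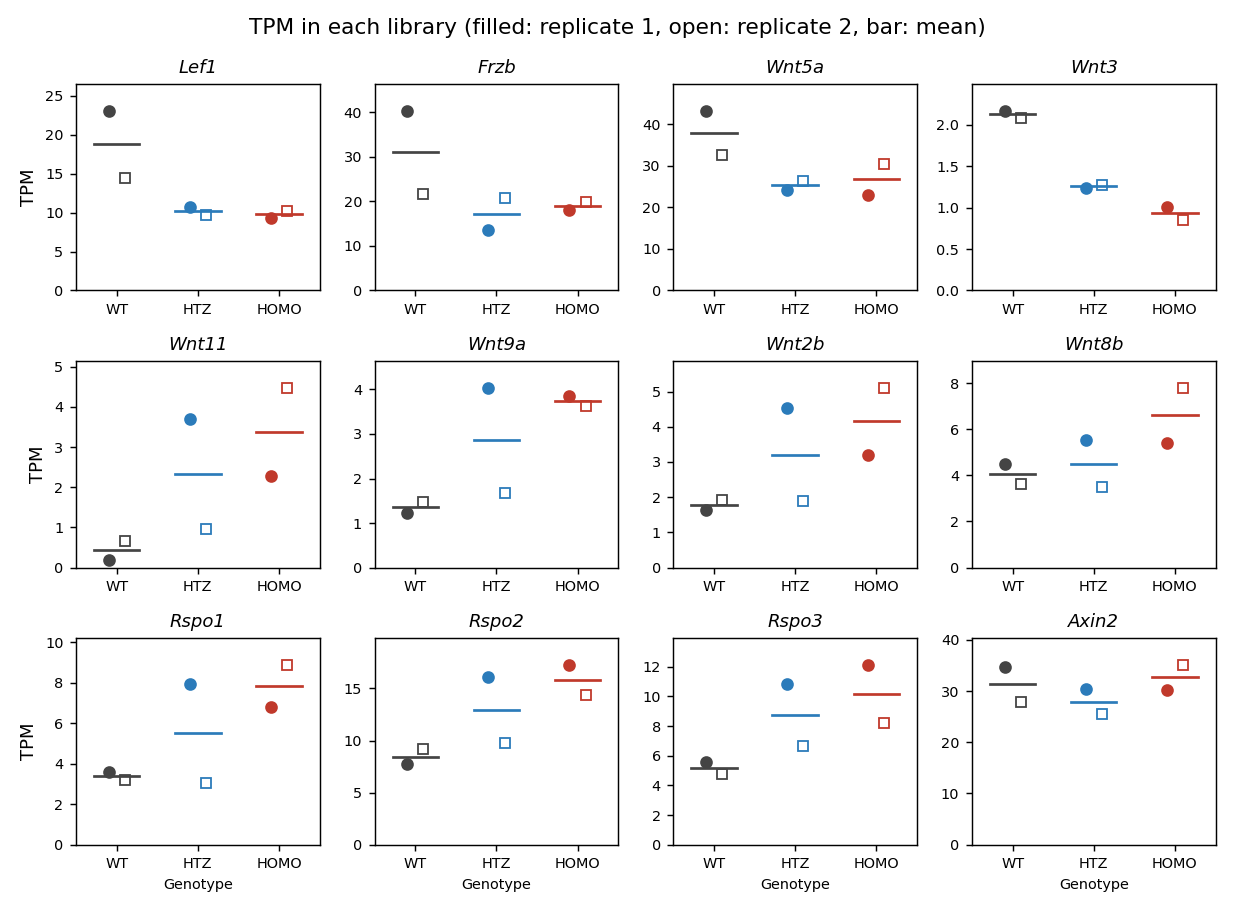
TPM (y axis) of 12 genes in each library, by genotype (x axis), with replicate 1 filled, replicate 2 open and the mean of 2 as a bar. Lef1, Frzb, Wnt5a and Wnt3 have both WT libraries above all floxed ones, whereas for Wnt11, Wnt9a, Wnt2b, Wnt8b and Rspo1 to Rspo3 HTZ replicate 2 lies near WT while HTZ replicate 1 and both HOMO libraries are higher.

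Levels of most receptors overlapped between genotypes, with Fzd9 and Fzd10 as exceptions described below. Fzd1 was the highest, at 52.1 and 34.8 TPM in WT, 41.1 and 34.8 TPM in HTZ and 37.3 and 36.6 TPM in HOMO libraries, so the genotypes overlapped. Fzd3, a receptor known for axon guidance and planar polarity, stood at 27.8 and 22.5 TPM in WT, 25.6 and 23.0 TPM in HTZ and 23.6 and 23.3 TPM in HOMO libraries. The co-receptor Lrp6 stood at 22.1 and 19.1 TPM in WT, 24.4 and 17.5 TPM in HTZ and 23.1 and 18.7 TPM in HOMO libraries, within which the replicates differed more than the genotypes. Its relative Lrp5 lay lower, between 9.15 and 13.9 TPM. Fzd9, a receptor of neural precursors of the hippocampus, lay between 13.9 and 18.9 TPM, Fzd7 between 10.4 and 18.6 TPM, Fzd2 between 6.87 and 11.4 TPM and Fzd8 between 5.14 and 8.40 TPM. Fzd6, Fzd4 and Fzd10 lay between 1.54 and 6.92 TPM, and Fzd5 had a mean below 1 TPM.

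Of the 11 receptors tested, 0 were separated between HTZ and WT and 2, Fzd9 and Fzd10, lay above WT in HOMO libraries without overlap. Over all genes, 17.1% lay higher and 28.9% lower without overlap in HTZ, and 23.6% higher in HOMO, so the count of 2 receptors does not exceed the background. Fzd10 stood at 3.08 and 1.54 TPM in WT, 5.55 and 2.21 TPM in HTZ and 3.97 and 6.22 TPM in HOMO libraries. HTZ replicate 2 lay between the WT values there too. The log2 fold changes of the 11 receptors ran from -0.17 to 0.51 in HTZ and from -0.26 to 0.90 in HOMO against WT.

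The antagonists were led by Dkk3, a Dickkopf relative whose effect on Wnt signalling is less clear than that of Dkk1. It stood at 83.1 and 58.6 TPM in WT, 67.4 and 64.6 TPM in HTZ and 65.5 and 86.4 TPM in HOMO libraries, all overlapping. Frzb, a secreted frizzled-related protein also called Sfrp3, stood at 40.4 and 21.7 TPM in WT, 13.5 and 20.7 TPM in HTZ and 18.0 and 19.8 TPM in HOMO libraries. All floxed libraries lay below both WT libraries, but the gap between the WT replicates was larger than that from the lower WT library to any floxed one. In HTZ its log2 fold change was -0.79 (SE 0.31, limma adjusted p = 0.34), and -0.35 without WT replicate 1.

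Sfrp1, a product of radial glia, stood at 16.3 and 11.2 TPM in WT, 31.3 and 11.9 TPM in HTZ and 18.3 and 14.8 TPM in HOMO libraries. It was high in HTZ replicate 1, and the genotypes overlapped. Sfrp2 stood at 3.77 and 3.84 TPM in WT, 5.51 and 5.18 TPM in HTZ and 5.12 and 4.38 TPM in HOMO libraries, above WT in every floxed library, with a log2 fold change of 0.40 in HTZ (SE 0.19, limma adjusted p = 0.40). Wif1, which binds Wnt proteins directly, stood at 1.54 and 0.68 TPM in WT, 2.47 and 1.29 TPM in HTZ and 2.23 and 3.58 TPM in HOMO libraries. Both HOMO libraries exceeded WT, and against HTZ the HOMO difference was 0.45 (SE 0.35, limma adjusted p = 0.9999), or 0.15 without HTZ replicate 2 and 0.20 without HOMO replicate 2.

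Sfrp5 had a mean below 1 TPM but followed the choroid plexus markers, at 1.34 TPM in HTZ replicate 1 and 1.18 TPM in HOMO replicate 1 and at 0 to 0.12 TPM in the other libraries. The part of choroid plexus RNA in this level was not tested. Dkk1, the blocker of Lrp5 and Lrp6, lay between 0 and 0.18 TPM, and Dkk4 was listed at 0 in every library. Sfrp4 and Dkk2, at 1.76 to 3.36 and 0.64 to 1.53 TPM, both lay below WT in HOMO libraries without overlap.

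Of the R-spondins, 3 lay higher in most floxed libraries, while Lgr4, Znrf3 and Rnf43, on which they act, overlapped between WT and each floxed genotype. Rspo2 stood at 7.76 and 9.14 TPM in WT, 16.1 and 9.80 TPM in HTZ and 17.3 and 14.3 TPM in HOMO libraries. Every floxed library lay above WT. The log2 fold change was 0.53 in HTZ (SE 0.24, limma adjusted p = 0.39) and 0.83 in HOMO (SE 0.24, limma adjusted p = 0.17), and without both libraries with the most choroid plexus RNA 0.20 and 0.70.

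Rspo3 stood at 5.58 and 4.75 TPM in WT, 10.8 and 6.69 TPM in HTZ and 12.1 and 8.24 TPM in HOMO libraries, also above WT in every floxed library. Its log2 fold change was 0.63 in HTZ (SE 0.28, limma adjusted p = 0.37) and 0.84 in HOMO (SE 0.28, limma adjusted p = 0.20), and without the same 2 libraries 0.32 and 0.59. Rspo1 stood at 3.61 and 3.17 TPM in WT, 7.94 and 3.05 TPM in HTZ and 6.78 and 8.88 TPM in HOMO libraries. HTZ replicate 2 lay below both WT libraries, so only HOMO was separated from WT, at a log2 fold change of 0.9997 (SE 0.37, limma adjusted p = 0.24) that was 1.17 without HTZ replicate 1 and HOMO replicate 1. All 3 genes are known hem products and had the high and low libraries of the hem sums given above, whose part in these levels was not tested. Rspo4 lay below 1 TPM.

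Of the R-spondin receptors, Lgr4 stood at 10.6 and 8.30 TPM in WT, 8.15 and 8.42 TPM in HTZ and 9.23 and 10.98 TPM in HOMO libraries. HOMO lay above HTZ without overlap but not above WT, and its difference from HTZ was 0.25 (SE 0.18, limma adjusted p = 0.9999), or 0.14 without HOMO replicate 2. Lgr6 lay between 0.67 and 1.55 TPM, and Lgr5, the stem cell marker of the gut, between 0.22 and 0.82 TPM. The ligases Znrf3 (6.30 to 10.2 TPM) and Rnf43 (4.68 to 6.83 TPM) were highest in WT replicate 1 and overlapped between WT and each floxed genotype.

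Axin2 and Nkd1, negative regulators that the pathway itself induces, gave no separation between genotypes. Axin2 stood at 34.7 and 27.9 TPM in WT, 30.3 and 25.5 TPM in HTZ and 30.2 and 35.1 TPM in HOMO libraries. Axin1, the constitutive scaffold of the destruction complex, stood at 37.1 and 25.3 TPM in WT, 30.3 and 23.9 TPM in HTZ and 27.0 and 24.7 TPM in HOMO libraries. Nkd1 stood at 26.0 and 16.1 TPM in WT, 25.6 and 20.9 TPM in HTZ and 21.8 and 32.9 TPM in HOMO libraries. In all 3 genes the replicates of WT differed by more than the genotype means of WT and HTZ.

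Lef1, the TCF/LEF factor of the developing dentate gyrus, was the gene with the smallest unadjusted p in both comparisons with WT. It is on the plus strand of chromosome 3 from 131110471 to 131224356 (GENCODE vM21, GRCm38). Lef1 stood at 23.1 and 14.5 TPM in WT, 10.7 and 9.65 TPM in HTZ and 9.34 and 10.2 TPM in HOMO libraries. All 4 floxed libraries lay within a narrow band below both WT libraries, and HTZ and HOMO overlapped. The log2 fold change was -0.79 in HTZ (SE 0.23, limma adjusted p = 0.28) and -0.84 in HOMO (SE 0.23, limma adjusted p = 0.15). Without both libraries with the most choroid plexus RNA it was -0.86 and -0.79, and without WT replicate 1 it was -0.47 and -0.52. All 7 granule lineage markers also lay below WT without overlap in either floxed genotype. Over all genes, 28.9% did so in HTZ and 30.7% in HOMO. Calb2 is on this list and on that of Cajal-Retzius cells. The part of these markers in the Lef1 level was not tested.

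The other members of this family were lower and did not separate from WT. Tcf7 stood at 7.26 and 4.06 TPM in WT, 5.07 and 4.87 TPM in HTZ and 5.46 and 7.14 TPM in HOMO libraries. Tcf7l1, mostly a repressor of targets in progenitors, stood at 5.64 and 5.34 TPM in WT, 7.74 and 4.33 TPM in HTZ and 4.07 and 6.57 TPM in HOMO libraries. Tcf7l2, which is abundant in thalamus, lay between 2.33 and 4.06 TPM.

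**Figure D4:**
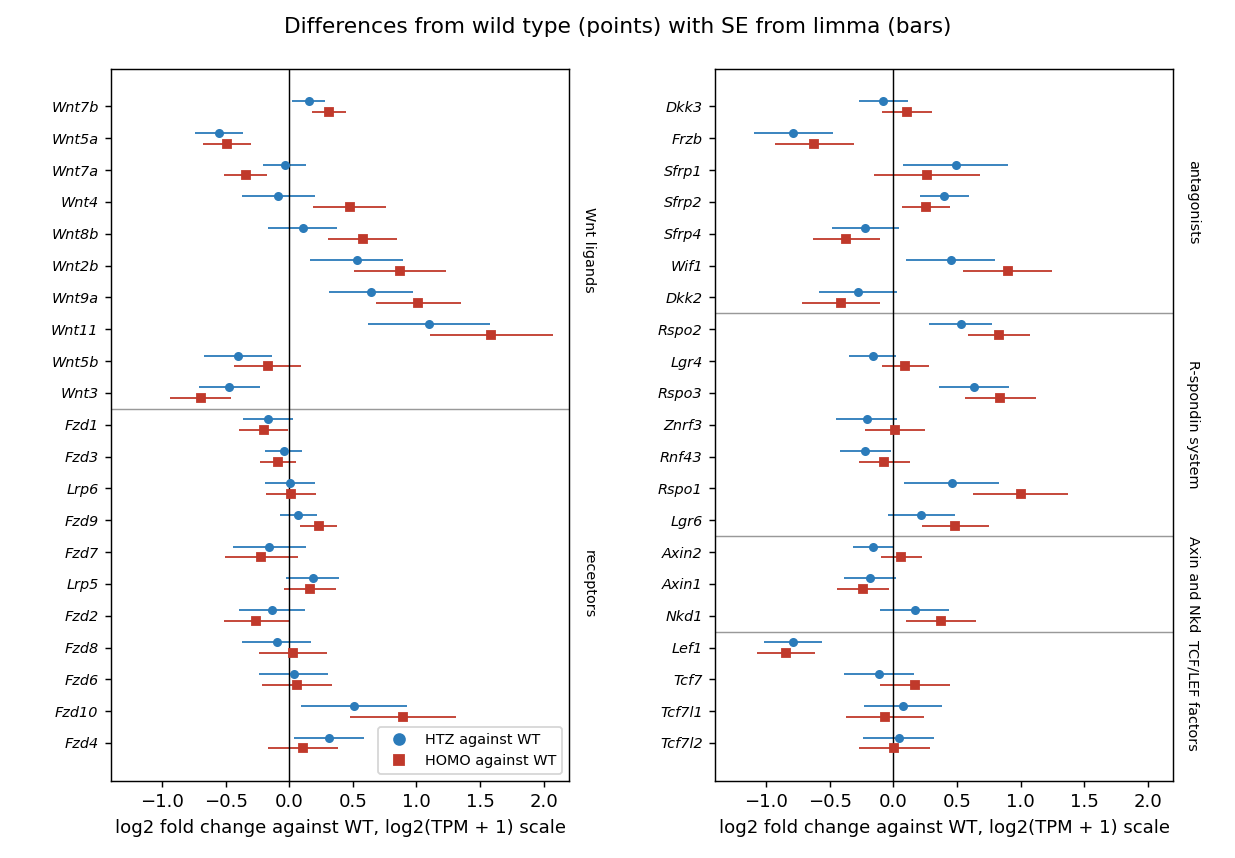
log2 fold change against WT on the log2(TPM + 1) scale (x axis) with limma's SE as bars, for the 42 genes tested (y axis), HTZ as blue circles and HOMO as red squares. Wnt11, Wnt9a, Wnt2b, Rspo1 to Rspo3, Fzd10 and Wif1 lie to the right and Lef1, Wnt5a, Wnt3 and Frzb to the left in both genotypes. Both genotypes share their WT libraries, and most receptors lie near 0.

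HTZ libraries were compared with WT over the whole set. Of the 42 genes tested, 0 were called by limma at an adjusted p of 0.05, where 0.0344% of all 14518 genes were, and 3 had an unadjusted p under 0.05 (Lef1, Wnt5a and Frzb, all lower), a share of 7.14% where all genes gave 14.1%. Libraries did not overlap for 6 genes that were higher (Wnt7b, Wnt9a, Wnt11, Sfrp2, Rspo2 and Rspo3), where 17.1% of all genes were, and for 5 that were lower (Lef1, Wnt5a, Wnt3, Wnt5b and Frzb), where 28.9% were. As shares of the 42 these are 14.3% and 11.9%, so neither exceeded the background. Wnt11 was among the 6 although it was tested only through its level in floxed libraries. The median log2 fold change was -0.013, beside -0.061 for all genes tested. It was 0.12 without WT replicate 1, 0.091 without HTZ replicate 2 and 0.046 after median-of-ratios scaling of the libraries, and so had no settled sign. The 6 became 20 without WT replicate 1 and 18 without HTZ replicate 2, and the 5 became 21, 16 and 9 without WT replicate 2, HTZ replicate 1 and HTZ replicate 2, since a single library on one side overlaps less easily.

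HOMO libraries were compared with WT in the same way. Again 0 of 42 genes were called by limma, where 0.0413% of all genes were, and 10 had an unadjusted p under 0.05, 7 higher (Rspo1, Rspo2, Rspo3, Wnt11, Wnt9a, Wnt2b and Wif1) and 3 lower (Lef1, Wnt3 and Wnt5a). That share was 23.8%, beside 18.1% of all genes. Libraries did not overlap for 14 genes that were higher, or 33.3%, where 23.6% of all genes were, and for 7 that were lower, or 16.7%, where 30.7% were. The higher ones were 6 ligands (Wnt2b, Wnt4, Wnt7b, Wnt8b, Wnt9a and Wnt11), 4 of the R-spondin system (Rspo1, Rspo2, Rspo3 and Lgr6), Fzd9, Fzd10, Sfrp2 and Wif1. Without the 4 genes that had a genotype mean below 1 TPM (Wnt11, Wnt3, Dkk2 and Lgr6) the counts were 12 and 5. Without the same genes, 5 were higher and 4 lower in HTZ against WT, and 4 higher and 3 lower in HOMO against HTZ. The median log2 fold change was 0.078, beside -0.036 for all genes, and was -0.087 without WT replicate 2. The 14 became 28 without WT replicate 1, and the 7 became 16 without WT replicate 2 and 11 without HOMO replicate 1.

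By the same counts, HOMO and HTZ libraries differed less from each other. Of 42 genes 0 were called by limma, where 0.0138% of all genes were, and 0 had an unadjusted p under 0.05, where 2.05% of all genes did. HOMO lay above HTZ without overlap for 5 genes (Fzd9, Lgr4, Lgr6, Znrf3 and Tcf7), beside 15.3% of all genes, and below for 4 (Wnt3, Wnt7a, Sfrp2 and Sfrp4), beside 13.7%. The median log2 fold change of the 42 genes was 0.15, beside 0.014 for all genes tested. It turned to -0.075 without HTZ replicate 2, and so had no settled sign. The smallest unadjusted p belonged to Wnt4, Wnt7a, Wnt8b, Rspo1, Axin2, Lgr4, Wif1 and Rspo2, and for Wnt8b the difference was 0.47 (SE 0.27, limma adjusted p = 0.9999), and for Axin2 0.22 (SE 0.16, limma adjusted p = 0.9999). Rspo1 at 0.54 and Rspo2 at 0.30 turned to -0.028 and -0.029 without HTZ replicate 2, the library nearest WT, while without it Wnt8b was 0.20 and Axin2 0.10, and without HOMO replicate 2 they were 0.24 and 0.11. The count of 5 was 30, 8, 18 and 10 without HTZ replicate 1, HTZ replicate 2, HOMO replicate 1 and HOMO replicate 2, and the count of 4 was 17 and 9 without HTZ replicate 2 and HOMO replicate 2.

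The rest of the pathway was read from a list of Wnt secretion, planar polarity, cytoplasmic and nuclear genes and of common targets, of which 61 of 63 were tested. By limma 0 of the 61 passed in any comparison. Of 9 common target genes tested, 0 had an unadjusted p under 0.05 in any comparison. At that p, 10 of the 61 were lower and 1 was higher in HTZ against WT, together 18%, beside 14.1% of all genes. In HOMO against WT 7 were lower and 3 were higher, together 16.4%, beside 18.1% of all genes. These shares pool both directions and were near the background, but the lower genes outnumbered the higher ones more than over all genes. At the same p, 1108 of all 14518 genes were lower and 932 higher in HTZ, and 1423 and 1212 in HOMO. Without overlap, 27 of the 61 lay lower and 5 higher in HTZ, beside 28.9% and 17.1% of all genes. In HOMO 25 lay lower and 12 higher, beside 30.7% and 23.6%. In both genotypes the share of the 61 that lay lower was thus above that of all genes, and the share that lay higher was below it. Among the 20 cytoplasmic genes tested, 17 lay below WT on the log2 scale in each floxed genotype. Of all 14518 genes, 8680 did so in HTZ and 8015 in HOMO. The medians of the 20 were -0.17 and -0.21, beside -0.061 and -0.036 for all genes. Both comparisons share the WT libraries, so they do not repeat each other independently. Apc2, a neuronal relative of Apc, stood at 204 and 171 TPM in WT, 138 and 145 TPM in HTZ and 122 and 99.0 TPM in HOMO libraries (HOMO against WT -0.75, SE 0.14, limma adjusted p = 0.080). Csnk1e, a casein kinase that phosphorylates Dishevelled, stood at 246 and 207 TPM in WT, 177 and 167 TPM in HTZ and 160 and 152 TPM in HOMO libraries (HOMO against WT -0.53, SE 0.11, limma adjusted p = 0.10).

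Outside the cell, Draxin, a guidance cue that can antagonise Wnt signalling, stood at 122 and 97.0 TPM in WT, 72.7 and 66.7 TPM in HTZ and 51.9 and 45.2 TPM in HOMO libraries (HOMO against WT -1.15, SE 0.14, limma adjusted p = 0.061). No genotypes overlapped for Draxin, Csnk1e or Apc2. Porcn, the acyltransferase that lipidates Wnt proteins, stood at 55.1 and 43.0 TPM in WT, 33.4 and 35.2 TPM in HTZ and 38.8 and 44.8 TPM in HOMO libraries, lowest in HTZ. Wls, the carrier that brings Wnt proteins to the cell surface, was picked after its values were seen. It stood at 14.9 and 10.4 TPM in WT, 51.4 and 20.6 TPM in HTZ and 42.2 and 61.9 TPM in HOMO libraries (HOMO against WT 1.96, SE 0.42, limma adjusted p = 0.11), with HTZ replicate 2 again the floxed library nearest WT.

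Replicates also differed in these genes. In WT, replicate 1 was above replicate 2 for 33 of the 42 genes, or 78.6%, beside 69.7% of all genes tested, and in HTZ for 32, or 76.2%, beside 60%. In HOMO it was above for 17, or 40.5%, beside 49%. WT replicate 1 held the highest value of 16 of the 42 genes, HOMO replicate 2 that of 14, HTZ replicate 1 that of 9 and HOMO replicate 1 that of 3, while WT replicate 2 and HTZ replicate 2 held that of 0. Over all genes, the highest value lay in WT replicate 1 for 41%, in WT replicate 2 for 8.33%, in HTZ replicates 1 and 2 for 18.6% and 5.58%, and in HOMO replicates 1 and 2 for 9.03% and 17.4%. Cajal-Retzius cell markers (6 of 6 detected) summed to 1093 TPM in WT replicate 1 and to 418 to 621 TPM in the other libraries, so the library that lifts the WT means of Lef1, Frzb and Wnt5a also had the most of these markers, whose part was not tested.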

How the data were processed

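RNA sequencing was done on 6 libraries of dentate neuroepithelium, 2 per genotype taken from the titles. The authors deposited 1 table of TPM values for 35274 genes with Ensembl identifiers and symbols, each library summing to 1000000. TopHat 2.0.11 on mm10 and Cufflinks 2.2.1 are the tools per the labels, whereas the submitters' processing notes list FastQC and RSEM with mm10 and GRCm38. TPM keeps no read depth, so the depth and the counting error of each value are unknown, and 18722 to 19408 genes per library were above 0.

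Values were used as log2(TPM + 1), which understates the change of low genes. The 14518 genes averaging 1 TPM or more entered limma 3.58.1 in R 4.3.3 (a term per genotype over all 6 libraries, eBayes with an intensity trend, 3 residual degrees of freedom), with Benjamini-Hochberg adjustment over all of them at 0.05 for each of the 3 comparisons. The script was tested on simulated data. The smallest two-sided p of an exact test on 2 and 2 libraries is 0.33. The members, lists and rules were chosen with earlier results of these data known. Named with values in every library were the 8 genes with the smallest p per comparison and the 3 with the highest mean per role. Of the other pathway genes, the 3 with the smallest p in each comparison with WT were named. Further genes, among them Wnt2b, Wnt3a, Wnt6, Fzd10, Sfrp5 and Wls, were named after their values were seen. Errors are limma's SE. Alternatives were another pseudocount (0.1), no filter, a mean of at least 5 TPM, median-of-ratios scaling, no trend, 2 genotypes only, a replicate block, leaving out each library, and leaving out both libraries with the most Ttr. Gene positions came from GENCODE vM21 on GRCm38 and promoter windows from RefSeq on GRCm38.p6.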

Additional observations from a re-analysis of the deposited data

How the results depend on the processing

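The 24 differences of single genes named by the smallest p were recomputed under 14 other settings, giving 329 values. Of these, 326 kept their direction and their side of the threshold, but under several settings direction could not change. No filter, a mean of at least 5 TPM, no trend, 2 genotypes only and the replicate block leave the log2 fold change as it was. Leaving out a library of the third genotype does so too, and the 326 are thus not independent checks of direction. Wnt11 in HOMO against WT passed without both libraries with the most of the choroid plexus transcript Ttr, HTZ replicate 1 and HOMO replicate 1 (1.96), which made 1 Wnt gene called there. Each floxed genotype was then 1 library, the spread came from the 2 WT libraries alone and Wnt11 entered the test only through its floxed level, so it is not read as a result. Under every other setting 0 were called. Leaving out single libraries took the HOMO against HTZ difference of Rspo1 from -0.028 to 1.11 and that of Rspo2 from -0.029 to 0.63. Over all genes, the count called in HTZ against WT (5) was 1 with no filter, 49 at a pseudocount of 0.1, 152 without both libraries with the most Ttr and 3 to 397 when single libraries were left out (3 without either WT library, 25 without HTZ replicate 1, 397 without HTZ replicate 2). In HOMO against WT (6) it was 149 with that pseudocount, 3 with no filter, 393 with 2 genotypes only, 491 without both libraries with the most Ttr and 3 to 397 over single libraries (3 without WT replicate 1, 391 and 397 without HTZ replicates 1 and 2). In HOMO against HTZ (2) it was 1 with no filter, 1 without a trend, 12 without both libraries with the most Ttr and 1 to 5 over single libraries (1 without HOMO replicate 1, 5 without HOMO replicate 2). With no filter 12 Wnt genes were higher without overlap in HTZ than in WT. With a mean of at least 5 TPM fewer genes were tested, and the separated counts were 3 higher and 3 lower in HTZ and 7 higher and 4 lower in HOMO against WT, and 1 lower in HOMO against HTZ. Without both libraries with the most Ttr, 1 floxed library stood against 2 WT libraries and overlapped less easily. The lower counts were then 16 in HTZ and 11 in HOMO against WT. HOMO against HTZ was 1 library against 1, where libraries cannot overlap and every one of the 42 genes counts as separated. The 35 higher and 7 lower genes there give only the direction from HTZ replicate 2 to HOMO replicate 2. No conclusion is drawn from them. Over single libraries left out, the separated counts ran from 6 to 20 higher and 5 to 21 lower in HTZ against WT, 14 to 28 and 7 to 16 in HOMO against WT, and 5 to 30 and 4 to 17 in HOMO against HTZ. The causes of the other shifts were not tested.

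With the replicate block, the count over all genes was 9 in HTZ against WT and 283 in HOMO against WT, with 0 Wnt genes called in any comparison. Whether libraries with the same replicate number were paired or processed together is not given. The replicate differences correlated across genes at 0.212 between WT and HTZ, -0.0882 between WT and HOMO and 0.345 between HTZ and HOMO. With 2 libraries a genotype and unknown depth, differences of low genes such as Wnt3a or Wnt11 are the least certain.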
